A study of Homo sapiens with 16 samples.

Results

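MDA-MB-231 7TGP-POS cells were compared with MDA-MB-231 7TGP-NEG cells in low serum, across every annotated gene. The 4 libraries were chosen by their labels (cell line, reporter status and serum) from the 16 libraries of the series, with 2 for each subline. The study sorted Wnt reporter-positive and reporter-negative sublines from 2 triple-negative breast cancer (TNBC) lines and sequenced RNA from each in low and in standard serum. The other line, MDA-MB-436, enters here only through the shared fit and a closing comparison. MDA-MB-231 is a human breast cancer line of mesenchymal type. All 4 libraries came from cells that carried the 7TGP plasmid and had been selected with puromycin, so the 7TGP-NEG subline is a reporter-carrying control and not the parental line. In this plasmid, binding sites for TCF factors placed before a minimal promoter drive enhanced green fluorescent protein (eGFP). Repeated rounds of cell sorting and expansion gave the 7TGP-POS subline from eGFP-positive cells and the 7TGP-NEG subline from eGFP-negative cells. Each subline is a single sorted population, neither a clone nor a set of independent sorts. The cells were moved from 10% fetal bovine serum (FBS) to 0.5% FBS and harvested at day 3. The study calls the libraries of a group biological duplicates, but both come from the same subline, so the *P* values below measure only the spread between cultures of a subline.

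Wnt ligands bind Frizzled receptors and LRP co-receptors and halt the destruction of β-catenin, which then enters the nucleus and joins TCF/LEF factors on DNA. The genes switched on by this complex include several that damp the pathway, such as *AXIN2*, *RNF43* and *NKD1*. In breast tumours the pathway is known for its links to stem-cell traits and to the epithelial-mesenchymal transition (EMT), in which cells lose junctions and keratins and gain motility.

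The 4 libraries held 28357682 to 30659369 counts. Ribosomal protein genes took 2.78% to 2.84% of the counts and protein-coding genes 89.0% to 91.7%. Mitochondrially encoded transcripts took 0.696% and 0.938% of the counts in the 7TGP-NEG libraries and 0.603% and 0.331% in the 7TGP-POS libraries. POS replicate 2 thus had the lowest mitochondrial share, and it also had the lowest protein-coding share (89.0%). Its share of counts from genes that matched no annotation was the highest (4.46%, against 2.78% to 3.5% in the other libraries). Levels below are CPM, a gene's counts scaled to the same library total over all genes. The transcript of the reporter was not among the counted genes, and eGFP expression was not analysed here. Mesenchymal markers of the line were present at unlike levels. The receptor kinase gene *AXL* lay between 1384 and 1414 CPM and fibronectin (*FN1*) between 1161 and 1212 CPM. *SPARC*, of the same list, lay between 1.11 and 1.44 CPM. The summed level of all 6 mesenchymal markers was 8112 and 7959.5 CPM in 7TGP-NEG and 5481 and 5530.2 CPM in 7TGP-POS libraries, and vimentin (*VIM*) was the member that fell (4954 and 4768 against 2340.3 and 2315 CPM). E-cadherin (*CDH1*) did not pass 0.401 CPM and the estrogen receptor gene *ESR1* did not pass 0.353 CPM in any library. Both belong to a list of 11 luminal and receptor markers, of which others were expressed. The list summed to 1658 and 1752 CPM in 7TGP-NEG and 1236 and 1233 CPM in 7TGP-POS libraries. Its highest members were the keratin genes *KRT19* and *KRT8*, and *ERBB2* lay between 85.6 and 116 CPM. Among markers of other cell types, the basal keratin gene *KRT5* had 0 counts in all 4 libraries, while the summed level of 4 tested basal markers was 5.54 and 4.64 CPM in 7TGP-NEG and 22.3 and 24.5 CPM in 7TGP-POS libraries, mostly from *TP63*. The summed level of 4 leukocyte markers was 17.1 and 20.1 CPM in 7TGP-NEG and 17.7 and 17.3 CPM in 7TGP-POS libraries. Within that list *PTPRC*, which encodes the leukocyte phosphatase CD45, was higher in the 7TGP-POS libraries (1.83 and 2.04 against 4.18 and 4.27 CPM, log2 fold change 1.14, adjusted *P* = 3.61e-06). *LYZ* went the other way, from 7.99 and 8.71 to 4.28 and 4.2 CPM (log2 fold change -0.97). *CSF1R* had a log2 fold change of -0.42 and *CD14* of 0.39. The part of other cells in the results below was not tested.

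In all, 948 of 16069 tested protein-coding genes were differentially expressed (5.9%), 563 higher (3.5%) and 385 lower (2.4%) in 7TGP-POS cells. A differentially expressed gene (DEG) here had an adjusted *P* below 0.05 (edgeR quasi-likelihood test, Benjamini-Hochberg adjustment over all genes) and a log2 fold change of at least 1 in size, with positive values for higher in 7TGP-POS. The median log2 fold change was -0.01 over all genes tested, 1.82 among the DEGs that rose and, in size, 1.49 among those that fell. A change of at least 8-fold, or 3 on the log2 scale, was seen for 115 genes that rose and 37 that fell. Among the genes that rose, 32 averaged at least 100 CPM in 7TGP-POS cells, and among those that fell 14 averaged at least 100 CPM in 7TGP-NEG cells. The lower group had 3 or fewer counts in all for 102 DEGs. Without the fold threshold 6250 genes passed (38.9%), 3060 higher and 3190 lower. The groups did not overlap for 946 of the 948 DEGs, against 65.7% of all genes tested, and *MYRIP* and *ZNF483* were the exceptions. Statements below that the groups of a single gene lay apart are descriptions and add nothing to its call. In bulk RNA, a larger share of cells expressing a gene and more RNA per cell cannot be told apart. With limma on log2(TPM + 1), where TPM is the deposited level scaled for transcript length and depth, the split of DEGs turned from 563 higher and 385 lower to 140 higher and 162 lower. The median log2 fold change of the tested genes on that scale was -0.13. Protein-coding genes took 50.7% and 52.3% of the deposited TPM in the 7TGP-NEG and 46.8% and 41% in the 7TGP-POS libraries. With TPM rescaled to the same protein-coding total in each library, an alternative chosen after seeing the data, that median was 0 and the split was 218 higher and 91 lower.

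**Figure D1:**
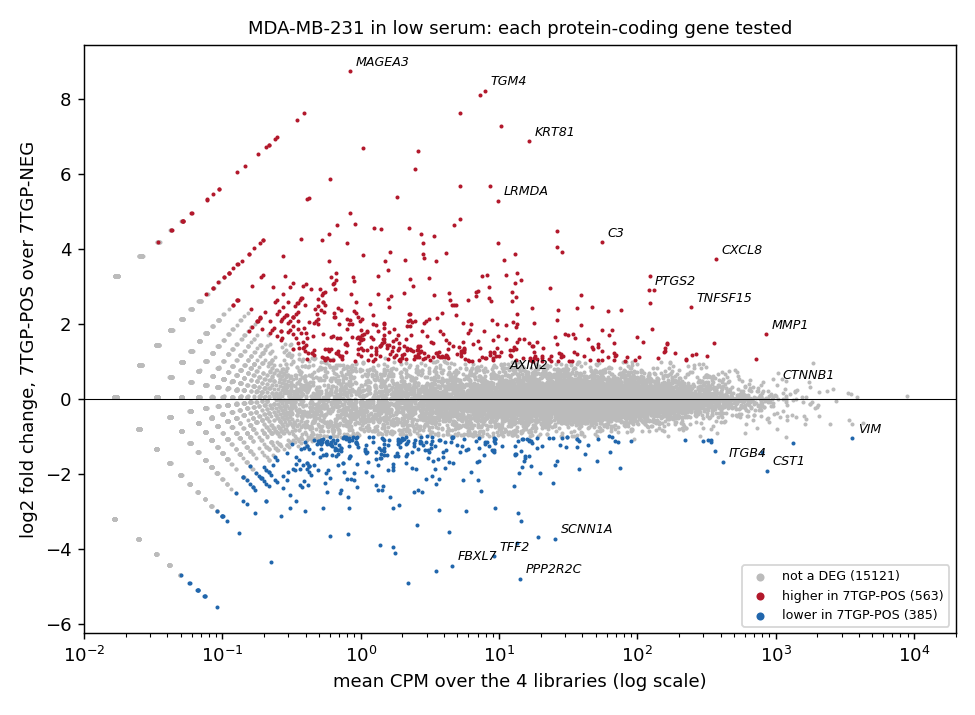
Mean level of each tested protein-coding gene over the 4 low serum MDA-MB-231 libraries (CPM, log axis) against its log2 fold change in 7TGP-POS over 7TGP-NEG cells, with red points for the 563 genes that rose, blue for the 385 that fell and grey for the rest. Increases such as *CXCL8* and *MMP1* and decreases such as *VIM* and *CST1* sit at high levels, while *AXIN2* and *CTNNB1* lie in the grey band and the widest changes are among genes at low levels.

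The lists of Wnt pathway genes, some of which share members, held up to 3 increases and 2 decreases each. Counts in these and the later lists are to be read against 3.5% higher and 2.4% lower among all genes tested. Of 27 tested feedback and target genes, 3 rose (11.1%) and none fell, with a median log2 fold change of 0.29. The members that rose were *LGR5*, an R-spondin receptor of stem cells, *TCF4*, and *MMP7*, a matrix protease. *TCF4* encodes the bHLH factor E2-2 and is not the β-catenin partner TCF7L2. *LGR5* was at 1.3 and 1.64 CPM in the 7TGP-NEG and 3.44 and 4.27 CPM in the 7TGP-POS libraries (log2 fold change 1.40 ± 0.221 SE, adjusted *P* = 1.75e-06). *TCF4* was at 3.23 and 2.6 CPM in the 7TGP-NEG and 26.1 and 25.95 CPM in the 7TGP-POS libraries, 8.96-fold higher (adjusted *P* = 3.06e-25). Both genes were higher in each 7TGP-POS library than in either 7TGP-NEG library. *MMP7* had 1 count in the 7TGP-NEG libraries together and was at 0.201 and 0.388 CPM in 7TGP-POS cells, a ratio of 17.7 (95% exact counting interval 2.77 to 739, adjusted *P* = 0.0033). Its call was lost without POS replicate 2 (adjusted *P* = 0.0571) or NEG replicate 1 (0.0568).

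Of the feedback genes introduced above, *AXIN2* and *RNF43* stayed below the fold threshold, and *NKD1* had 1 to 4 counts per library. *AXIN2*, the scaffold of the β-catenin destruction complex, was at 7.96 and 9.21 CPM in the 7TGP-NEG and 13.6 and 13.05 CPM in the 7TGP-POS libraries (log2 fold change 0.65 ± 0.112 SE, adjusted *P* = 8.29e-06). *LEF1*, a β-catenin partner on DNA, had 9.98 and 8.41 against 14.3 and 14.04 CPM, and *RNF43*, a ligase that removes Frizzled, had 7.21 and 6.84 against 10.1 and 11.2 CPM (log2 fold changes 0.63 and 0.60). For these 3 genes both 7TGP-POS libraries lay above both 7TGP-NEG libraries. Groups that did not overlap, in either direction, were seen for 65.7% of all genes tested. *SP5*, a repressor that responds to Wnt, was at 4.47 and 4.84 CPM in the 7TGP-NEG and 3.27 and 3.03 CPM in the 7TGP-POS libraries (log2 fold change -0.55). Cyclin D1 (*CCND1*) was at 1259 and 1258 CPM in the 7TGP-NEG and 887 and 896 CPM in the 7TGP-POS libraries, a log2 fold change of -0.49. In both genes the 7TGP-NEG libraries were the higher ones, again below the fold threshold.

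Among 19 Wnt ligand and secretion genes, *WNT7B* rose and *WNT9A* and *WNT11* fell (median 0.06). *WNT7B* was at 35.6 and 36.9 CPM in the 7TGP-NEG and 74.1 and 74.3 CPM in the 7TGP-POS libraries, 2.06-fold higher (adjusted *P* = 2.34e-17). *WNT9A* was at 11.02 and 10.8 CPM in the 7TGP-NEG and 3.34 and 3.56 CPM in the 7TGP-POS libraries, 3.14-fold lower (adjusted *P* = 3.54e-14). *WNT11* was at 0.978 and 0.834 CPM in the 7TGP-NEG and 0.201 and 0.176 CPM in the 7TGP-POS libraries (log2 fold change -2.23, adjusted *P* = 0.00012). None of the 3 ligands overlapped between groups, as for 946 of the 948 DEGs. Of 19 receptor genes *LGR5* and its relative *LGR6* rose and none fell (median -0.04). *LGR6* showed the wider change of this pair, from 0.424 and 0.3 CPM in 7TGP-NEG to 5.51 and 5.11 CPM in 7TGP-POS libraries (14.6-fold, adjusted *P* = 2.68e-16). The Frizzled gene *FZD1* went from 116 and 119 to 66.3 and 65.2 CPM, a log2 fold change of -0.83 that did not reach the fold threshold. It was called lower with limma on log2(TPM + 1) (-1.01, adjusted *P* = 1.54e-07), though not after the rescaling to protein-coding totals.

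Of 17 Wnt antagonists 3 rose and 2 fell (median -0.31). The secreted antagonist *DKK1* was at 151 and 151 CPM in the 7TGP-NEG and 182 and 186 CPM in the 7TGP-POS libraries, and its log2 fold change of 0.29 was under the threshold. *DKK3* was at 0.587 and 0.601 CPM in the 7TGP-NEG and 1.54 and 1.41 CPM in the 7TGP-POS libraries and rose (log2 fold change 1.31, adjusted *P* = 0.00101). *DKK2* had 1 count in the 7TGP-NEG libraries together and was at 0.434 and 0.282 CPM in 7TGP-POS cells (ratio 21.8, 95% exact counting interval 3.51 to 903, adjusted *P* = 0.000263). *SFRP1*, which binds Wnt ligands, fell from 1.04 and 1.24 to 0.334 and 0.353 CPM, and *TLE2*, a corepressor of TCF factors, fell from 4.37 and 6.48 to 1.9 and 1.62 CPM (log2 fold changes -1.71 and -1.61). *TLE4*, another corepressor, was at 0.228 and 0.3 CPM in the 7TGP-NEG and 0.535 and 0.564 CPM in the 7TGP-POS libraries (log2 fold change 1.05, adjusted *P* = 0.0353), and its call was lost without any of the 4 libraries (adjusted *P* 0.065 to 0.201). None of the 22 tested genes of β-catenin and its partners was called by edgeR or by DESeq2, although 4 were higher and 12 lower at an unadjusted edgeR *P* below 0.05 (median -0.18). At that *P*, 21.9% of all genes tested were higher and 23.3% lower. β-catenin itself (*CTNNB1*) was at 882 and 914 CPM in the 7TGP-NEG and 1134 and 1178 CPM in the 7TGP-POS libraries, a log2 fold change of 0.37.

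Of 12 tested CXC chemokines, secreted attractants of neutrophils and T cells, 7 rose, 5 were not called and none fell, 58.3% higher against the 3.5% of all genes, with a median log2 fold change of 1.71. *CXCL8*, the neutrophil attractant interleukin-8, was at 53.8 and 51.6 CPM in the 7TGP-NEG and 644 and 729 CPM in the 7TGP-POS libraries, 13.1-fold higher (log2 fold change 3.71 ± 0.0642 SE, adjusted *P* = 4.72e-27). *CXCL1* was at 23.8 and 22.6 CPM in the 7TGP-NEG and 218 and 226 CPM in the 7TGP-POS libraries, 9.61-fold higher (log2 fold change 3.26 ± 0.0602 SE, adjusted *P* = 1.04e-34). In both genes the 7TGP-POS libraries lay far above the 7TGP-NEG libraries, and the replicates were close. Per transcript length, the 7TGP-POS means were 652 TPM for *CXCL8* and 371 TPM for *CXCL1*, and the 7TGP-NEG means 57.3 and 44.3 TPM. The neighbouring *CXCL2* was at 5.54 and 5.64 CPM in the 7TGP-NEG and 15.8 and 17.9 CPM in the 7TGP-POS libraries (3.03-fold) and *CXCL3* at 3.88 and 3.34 against 10.5 and 10.5 CPM (2.92-fold). *CXCL1*, *CXCL2* and *CXCL3* are close copies, and reads shared between them make their separate values uncertain. The T-cell attractants *CXCL10* and *CXCL11* also rose, *CXCL10* from 0.587 and 0.601 to 2.44 and 1.73 CPM and *CXCL11* from 0.881 and 0.868 to 2.21 and 2.86 CPM (log2 fold changes 1.82 and 1.53). *CXCL5* rested on 1 count in the 7TGP-NEG and 12 in the 7TGP-POS libraries (ratio 12.5, 95% exact counting interval 1.85 to 534, adjusted *P* = 0.00775), and lost its call without POS replicate 2 (0.0636) or NEG replicate 2 (0.0903).

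The sequence before the start of these genes is shown because all 7 CXC chemokines that rose held the same short motif there. Promoter windows of 300 bases, 250 before and 50 after each start, were taken from RefSeq (GRCh38.p14) and covered 12754 of the 16069 genes, 419 that rose and 282 that fell. The motif searched, GGNNTTTCC on either strand, is the core shared by many NF-κB sites. It was found in 6.64% of all promoters, in 10.7% of those of genes that rose and in 4.61% of those of genes that fell. The motif was picked with these results known, and a match is a description of letters, not a measured binding site. Of other inflammatory genes examined that rose, *IL6*, *TNFAIP3*, *BIRC3*, *ICAM1* and *CCL20* held the motif. *CSF2*, *IL1A*, *IL1B*, *IL24* and *PTGS2* rose as well and held no match. *CSF3*, *CCL2* and *C3* had no promoter sequence here. The share among the CXC chemokines that were not called was not computed. The lines below give, 5′ to 3′ on the strand of the gene, the 120 bases up to the start, with motif matches in capitals.
CXCL8 (chr4:73740449-73740568, plus strand): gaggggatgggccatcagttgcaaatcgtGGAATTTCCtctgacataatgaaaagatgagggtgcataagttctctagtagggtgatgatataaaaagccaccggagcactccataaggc
CXCL1 (chr4:73869273-73869392, plus strand): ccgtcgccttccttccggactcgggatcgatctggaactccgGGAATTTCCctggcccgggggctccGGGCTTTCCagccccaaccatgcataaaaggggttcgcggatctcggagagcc
CXCL2 (chr4:74099196-74099315, minus strand): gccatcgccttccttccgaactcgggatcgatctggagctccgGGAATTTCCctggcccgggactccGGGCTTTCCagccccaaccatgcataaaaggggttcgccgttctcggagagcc
CXCL3 (chr4:74038690-74038809, minus strand): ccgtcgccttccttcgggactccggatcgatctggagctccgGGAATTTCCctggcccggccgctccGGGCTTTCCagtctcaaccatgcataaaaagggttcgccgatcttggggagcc
CXCL5 (chr4:73998678-73998797, minus strand): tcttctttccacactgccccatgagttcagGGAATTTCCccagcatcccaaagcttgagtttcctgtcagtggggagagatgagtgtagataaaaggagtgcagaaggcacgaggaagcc
CXCL11 (chr4:76036071-76036190, minus strand): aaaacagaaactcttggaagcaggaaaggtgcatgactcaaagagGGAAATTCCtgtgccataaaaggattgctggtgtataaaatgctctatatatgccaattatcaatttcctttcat
*CXCL10* held its match further from the start, outside this window. The windows of *CXCL1* and *CXCL3* shared 90.8% of their bases, and those of *CXCL1* and *CXCL8* 31.7%. The AP-1 motif TGAGTCA was found in 3.41% of all promoters, 7.64% of those of genes that rose and 6.03% of those of genes that fell. The TCF/LEF core ATCAAAG was found in 1.54%, 2.15% and 1.77% of the same sets, and *CXCL8* was the only CXC gene among the 7 to hold it. The TATA motif TATAAA was found in 6.97%, 14.8% and 7.09%.

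Of 12 tested colony-stimulating factors and chemokines of other classes 5 rose, 7 were not called and none was a lower DEG (median 1.46). The increases were 41.7% of the list, against 3.5% of all genes. *CSF3*, which drives neutrophil output, was at 14.9 and 14.7 CPM in the 7TGP-NEG and 83.2 and 75.8 CPM in the 7TGP-POS libraries, 5.4-fold higher (log2 fold change 2.43 ± 0.0703 SE, adjusted *P* = 4.37e-28). *CSF2*, the granulocyte-macrophage factor, was at 28.5 and 30.97 CPM in the 7TGP-NEG and 97.6 and 93.7 CPM in the 7TGP-POS libraries (3.23-fold, adjusted *P* = 2.83e-24). *CCL2*, the monocyte attractant, was at 0.261 and 0.467 CPM in the 7TGP-NEG and 10.4 and 9.66 CPM in the 7TGP-POS libraries, 27.5-fold higher (log2 fold change 4.78 ± 0.198 SE, adjusted *P* = 8.39e-23). Each of the 3 was higher in both 7TGP-POS libraries, and *CCL2* was below 1 CPM in both 7TGP-NEG libraries. *CX3CL1*, a membrane-bound chemokine, was at 0.946 and 1.34 CPM in the 7TGP-NEG and 4.81 and 4.44 CPM in the 7TGP-POS libraries (log2 fold change 2.03). *CCL20* was at 0.554 and 0.601 CPM in the 7TGP-NEG and 1.1 and 1.55 CPM in the 7TGP-POS libraries (log2 fold change 1.20, adjusted *P* = 0.000474), and fell short of the fold threshold without POS replicate 2 (0.91). The macrophage factor *CSF1* went the other way, at 366 and 374 CPM in the 7TGP-NEG and 275 and 259.5 CPM in the 7TGP-POS libraries, a log2 fold change of -0.46 that was not a DEG.

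Among 39 listed interleukins and receptors 10 rose and 1 fell (25.6% and 2.56%, against 3.5% and 2.4% of all genes). The median was 0.48, with 33 members above 0. The receptor gene *IL22RA1*, outside the list, also fell. *IL1B*, a central inflammatory cytokine, was at 2.35 and 3.7 CPM in the 7TGP-NEG and 50.6 and 48.98 CPM in the 7TGP-POS libraries, 16.6-fold higher (log2 fold change 4.05 ± 0.1 SE, adjusted *P* = 6.26e-28). *IL1A*, which binds the same receptor, was at 3.49 and 3.6 CPM in the 7TGP-NEG and 20.7 and 22.005 CPM in the 7TGP-POS libraries (6.05-fold, adjusted *P* = 4.1e-24). The 7TGP-POS libraries agreed closely for both cytokines and lay well above the 7TGP-NEG libraries. *IL6* was at 1.57 and 1.77 CPM in the 7TGP-NEG and 13.1 and 10.9 CPM in the 7TGP-POS libraries, 7.23-fold higher (adjusted *P* = 4.51e-20). *IL11*, a relative of *IL6* in the gp130 family, was at 25.8 and 24.4 CPM in the 7TGP-NEG and 129.8 and 127 CPM in the 7TGP-POS libraries (5.15-fold, adjusted *P* = 9.3e-29). Neither gene overlapped between groups. *IL24*, of the IL-10 family, was at 0.196 and 0.3 CPM in the 7TGP-NEG and 5.38 and 5.11 CPM in the 7TGP-POS libraries (21.01-fold, adjusted *P* = 6.68e-16), and *IL32* was at 7.01 and 7.14 against 19.1 and 17.8 CPM (2.63-fold). *IL13RA2*, a decoy receptor for IL-13, had 1 count in the 7TGP-NEG libraries together and was at 0.969 and 1.38 CPM in 7TGP-POS cells (ratio 70.7, 95% exact counting interval 12.3 to 2834, adjusted *P* = 1.63e-09). *IL1RN*, which encodes the antagonist of the IL-1 receptor, was the member that fell, from 0.261 and 0.0334 CPM to 0 counts in both 7TGP-POS libraries. The fall was at least 2.88-fold (adjusted *P* = 0.0208), against a floor of 3 counts over the group. Its call was lost without POS replicate 1 (adjusted *P* = 0.0968), POS replicate 2 (0.0934) or NEG replicate 1 (0.371).

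In the NF-κB list, 4 of 18 tested genes rose and none fell (22.2% higher against 3.5% of all genes, median 0.31). The members that rose were feedback or survival genes rather than subunits of the factor. *BIRC3*, an inhibitor of cell death, was at 87.2 and 86.2 CPM in the 7TGP-NEG and 239 and 248 CPM in the 7TGP-POS libraries (2.83-fold, adjusted *P* = 3.3e-25). *TNFAIP3*, which encodes the NF-κB inhibitor A20, was at 16.9 and 17.4 CPM in the 7TGP-NEG and 41.1 and 37.5 CPM in the 7TGP-POS libraries (2.31-fold, adjusted *P* = 3.24e-19). Both were higher in each 7TGP-POS library. *TNIP3*, which binds A20, was at 0.554 and 0.601 CPM in the 7TGP-NEG and 2.47 and 2.22 CPM in the 7TGP-POS libraries (log2 fold change 2.03). *ZC3H12A*, an RNase that degrades cytokine transcripts, was at 30.8 and 29.04 CPM in the 7TGP-NEG and 65.3 and 57.2 CPM in the 7TGP-POS libraries (log2 fold change 1.04), and fell to 0.97 without POS replicate 1. The inhibitor *NFKBIA* went from 138 and 149 to 221 and 207 CPM, and its log2 fold change of 0.59 did not reach the threshold. Among 19 Toll-like receptors and adaptors, *TLR2* and *IRAK3* rose and none fell (10.5% higher, median 0.19). *TLR2*, a sensor of bacterial lipoproteins, was at 7.27 and 6.71 CPM in the 7TGP-NEG and 20.4 and 21.5 CPM in the 7TGP-POS libraries (3.01-fold, adjusted *P* = 2.5e-15). *IRAK3*, a brake on Toll-like receptor signals, was at 16.99 and 14.9 CPM in the 7TGP-NEG and 31.3 and 32.4 CPM in the 7TGP-POS libraries (log2 fold change 1.00), and was not a DEG without POS replicate 2 (0.95) or NEG replicate 2 (0.91).

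Of 27 tested TNF superfamily genes 5 rose and 1 fell (18.5% and 3.7%, against 3.5% and 2.4% of all genes, median 0.07). The ligand *TNFSF15* was at 77.8 and 75.6 CPM in the 7TGP-NEG and 412 and 416 CPM in the 7TGP-POS libraries, 5.43-fold higher (log2 fold change 2.44 ± 0.0533 SE, adjusted *P* = 2.86e-32). *TNFRSF11B*, which encodes the decoy receptor osteoprotegerin, was at 17.9 and 16.96 CPM in the 7TGP-NEG and 53.5 and 53.5 CPM in the 7TGP-POS libraries (3.09-fold). *TNFRSF1B*, the TNF receptor 2 gene, was at 15.1 and 17.6 against 37.9 and 37.6 CPM (log2 fold change 1.22). All 3 were higher in both 7TGP-POS libraries. The nerve growth factor receptor gene *NGFR* was the member that fell, from 3.88 and 3.47 to 1.04 and 0.987 CPM (log2 fold change -1.85, adjusted *P* = 1.49e-08).

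Among 22 prostaglandin genes 5 rose and 3 fell (22.7% and 13.6%, against 3.5% and 2.4% of all genes, median 0.04). The 5 that rose included enzymes of successive steps of prostaglandin E2 synthesis. *PLA2G4A*, which frees arachidonic acid, was at 6.85 and 7.24 CPM in the 7TGP-NEG and 19.95 and 20.3 CPM in the 7TGP-POS libraries (log2 fold change 1.52, adjusted *P* = 2.72e-17). *PTGS2*, which encodes cyclooxygenase-2, was at 30.6 and 28.04 CPM in the 7TGP-NEG and 203 and 228 CPM in the 7TGP-POS libraries, 7.4-fold higher (log2 fold change 2.89 ± 0.0698 SE, adjusted *P* = 8.38e-22). *PTGES*, the prostaglandin E synthase, was at 4.89 and 5.74 CPM in the 7TGP-NEG and 12.2 and 11.6 CPM in the 7TGP-POS libraries (log2 fold change 1.17, adjusted *P* = 3.53e-09). All 3 enzymes were higher in both 7TGP-POS libraries. *AKR1B1*, an aldose reductase gene, rose from 88.4 and 90.7 to 230.2 and 228 CPM (log2 fold change 1.36), and the prostaglandin F receptor gene *PTGFR* from 1.99 and 2.2 to 5.21 and 7.16 CPM (log2 fold change 1.57). *AKR1C3*, which reduces prostaglandins and steroids, fell from 38.1 and 38.7 to 19.05 and 17.9 CPM. *ALOX5*, which starts leukotriene synthesis, fell from 1.14 and 0.734 to 0.134 and 0.106 CPM (log2 fold change -2.92, adjusted *P* = 1.62e-06).

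Complement was split, with 4 of 21 genes higher and 3 lower (median -0.07). *C3*, the central component, was at 5.84 and 5.97 CPM in the 7TGP-NEG and 102 and 108 CPM in the 7TGP-POS libraries. *SERPING1*, the inhibitor of C1, was at 0.13 and 0.1 CPM in the 7TGP-NEG and 3.04 and 2.36 CPM in the 7TGP-POS libraries, 22.8-fold higher (adjusted *P* = 8.51e-12). *C1S*, a protease of C1, was at 7.24 and 8.24 against 17.4 and 16.3 CPM (log2 fold change 1.13). *CLU*, which encodes clusterin, was at 30.8 and 32.3 CPM in the 7TGP-NEG and 7.59 and 8.46 CPM in the 7TGP-POS libraries, 3.91-fold lower (adjusted *P* = 9.57e-23). *C4B* was at 4.4 and 5.34 against 0.969 and 1.23 CPM, but it shares reads with its copy *C4A* and its value is uncertain. Interferon-stimulated genes did not move as a group: 1 of 42, *EPSTI1*, rose (from 0.783 and 1.1 to 4.01 and 3.17 CPM) and none fell, with a median of 0.01. Of 21 antigen presentation genes none was a DEG by edgeR or by DESeq2, with 9 higher and 4 lower at an unadjusted edgeR *P* below 0.05, where 21.9% and 23.3% of all genes were (median 0.13).

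**Figure D2:**
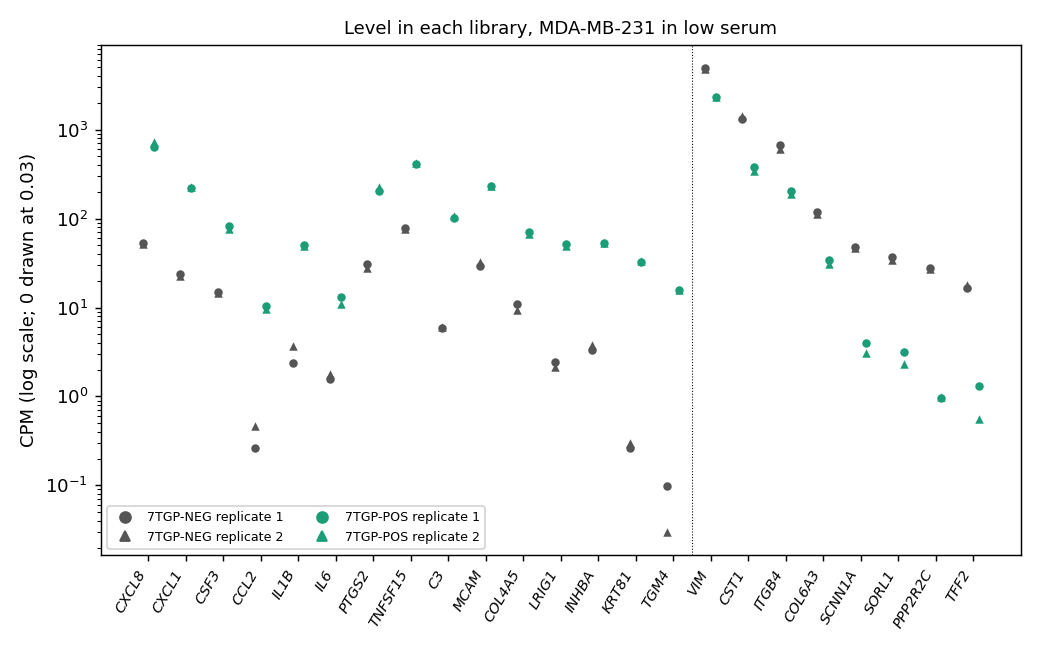
Level of named genes in each library (CPM, log axis, with 0 drawn at 0.03), in grey for 7TGP-NEG and green for 7TGP-POS libraries, as circles for replicate 1 and triangles for replicate 2. Increases stand left of the dotted line and decreases right of it, and in every gene drawn the 2 groups are apart, as in *CXCL8* (53.8 and 51.6 against 644 and 729 CPM) and *VIM* (4954 and 4768 against 2340.3 and 2315 CPM).

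The 10 widest increases were taken from genes that had 10 or more counts in all 4 libraries, and included the following. *LRIG1*, a negative regulator of ERBB receptors, was at 2.45 and 2.14 CPM in the 7TGP-NEG and 51.7 and 49.1 CPM in the 7TGP-POS libraries (22.1-fold, adjusted *P* = 4.88e-33). *INHBA*, which encodes the activin A subunit, was at 3.33 and 3.77 CPM in the 7TGP-NEG and 53.3 and 53.5 CPM in the 7TGP-POS libraries (15.1-fold, adjusted *P* = 7.05e-30). Both 7TGP-POS libraries were above both 7TGP-NEG libraries in each case. The receptor gene *NOTCH4* was at 0.522 and 0.534 against 8.35 and 7.19 CPM (14.7-fold) and *NAP1L3* at 1.6 and 1.8 against 24.3 and 24.4 CPM (14.4-fold).

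Some genes had a level of 0.3 CPM or less in both 7TGP-NEG libraries and were clearly expressed in both 7TGP-POS libraries. *TGM4*, a transglutaminase, was at 0.0978 and 0 CPM in the 7TGP-NEG and 15.7 and 15.7 CPM in the 7TGP-POS libraries, a ratio of 317 (95% exact counting interval 108 to 1541). *ANKRD30A*, a breast differentiation antigen, was at 0.0652 and 0.0334 CPM in the 7TGP-NEG and 14.7 and 14.5 CPM in the 7TGP-POS libraries, a ratio of 296 (101 to 1437). *GABRA3*, a subunit of the GABA-A receptor, was at 0.0978 and 0 CPM in the 7TGP-NEG and 11.6 and 9.24 CPM in the 7TGP-POS libraries, a ratio of 211 (71.9 to 1027). These 3 genes were all but absent from the 7TGP-NEG libraries and alike in both 7TGP-POS libraries. *FOLH1*, which encodes prostate-specific membrane antigen, rose from 0.0652 and 0.0668 to 5.35 and 4.34 CPM (log2 fold change 6.12). *FOXA1*, a pioneer transcription factor of luminal cells, had 3 counts in the 7TGP-NEG libraries together and was at 0.835 and 1.41 CPM in 7TGP-POS cells. Cancer-testis antigen genes on chromosome X were in this group too: *MAGEA6* was at 0.0978 and 0.167 CPM in the 7TGP-NEG and 20.4 and 20.9 CPM in the 7TGP-POS libraries (log2 fold change 7.26), *MAGEA3* had no counts in 7TGP-NEG cells and 1.64 and 1.73 CPM in 7TGP-POS cells (at least 34.0-fold higher), and *MAGEB2* rose to 2.14 and 2.01 CPM. *MAGEA3* and *MAGEA6* are near-identical, so reads could be split between them. The keratin gene *KRT81* was at 0.261 and 0.3 CPM in the 7TGP-NEG and 32.5 and 33.2 CPM in the 7TGP-POS libraries (log2 fold change 6.86), and its copy *KRT86* rose from 0.848 and 0.734 to 4.48 and 3.07 CPM, with the same caution.

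The widest decreases, by the same rule, included the following. *FBXL7*, an F-box protein gene, was at 8.32 and 9.15 CPM in the 7TGP-NEG and 0.434 and 0.353 CPM in the 7TGP-POS libraries, 21.8-fold lower (adjusted *P* = 1.23e-19). *SCNN1A*, a subunit of the epithelial sodium channel, was at 47.7 and 46.9 CPM in the 7TGP-NEG and 3.98 and 3.1 CPM in the 7TGP-POS libraries, 13.2-fold lower (log2 fold change -3.73 ± 0.103 SE, adjusted *P* = 8.97e-29). *SORL1*, a sorting receptor, was at 36.5 and 33.9 CPM in the 7TGP-NEG and 3.14 and 2.29 CPM in the 7TGP-POS libraries (12.8-fold lower). In each of the 3 both 7TGP-POS libraries lay below both 7TGP-NEG libraries. The trefoil factors, small peptides that protect mucosal surfaces, fell together. *TFF2* went from 16.7 and 18.1 to 1.3 and 0.564 CPM (18.3-fold lower), *TFF3* from 7.14 and 8.98 to 0.735 and 0.635 CPM (11.6-fold) and *TFF1* from 3.13 and 2.87 to 0.334 and 0.458 CPM (7.5-fold). *ALDOC*, a glycolytic aldolase, was at 25.9 and 26.4 CPM in the 7TGP-NEG and 2.81 and 2.61 CPM in the 7TGP-POS libraries, 9.58-fold lower (adjusted *P* = 4.53e-27). *CHRDL1*, a BMP antagonist, fell from 24.7 and 24.3 to 2.77 and 3.14 CPM (8.24-fold lower), and *PCSK1N*, an inhibitor of prohormone convertase, from 26.2 and 24.4 to 2.04 and 1.45 CPM (14.4-fold lower).

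Among the genes that fell, the highest counts were those of *VIM*, which encodes the mesenchymal filament vimentin, at 4954 and 4768 CPM in the 7TGP-NEG and 2340.3 and 2315 CPM in the 7TGP-POS libraries, 2.08-fold lower (log2 fold change -1.05 ± 0.0516 SE, adjusted *P* = 2.69e-20). The cystatins, secreted inhibitors of cysteine proteases, fell in 4 neighbouring genes. *CST1* was at 1321 and 1434 CPM in the 7TGP-NEG and 378 and 347 CPM in the 7TGP-POS libraries (3.78-fold lower, adjusted *P* = 4.71e-29). *CST3* was at 1843 and 1878 CPM in the 7TGP-NEG and 863 and 777 CPM in the 7TGP-POS libraries (2.26-fold lower), and the group difference was wider than the spread within each group. *CST4* went from 505 and 545 to 208 and 194 CPM and *CST2* from 74.4 and 81.7 to 23.7 and 25.8 CPM (log2 fold changes -1.38 and -1.65), and reads shared between the copies *CST1*, *CST2* and *CST4* make their separate values uncertain. *ENPP1*, an ectoenzyme that makes pyrophosphate and breaks down cGAMP, was at 1156 and 1165 CPM in the 7TGP-NEG and 428 and 444 CPM in the 7TGP-POS libraries (2.65-fold lower). *ITGB4*, the integrin subunit of hemidesmosomes, was at 674 and 602 CPM in the 7TGP-NEG and 206 and 188 CPM in the 7TGP-POS libraries (3.22-fold lower, adjusted *P* = 1.45e-26). The actin-severing gene *GSN* went from 452 and 487 to 211 and 209.5 CPM (log2 fold change -1.15), and *NET1*, an activator of RhoA, from 464 and 472 to 214 and 222 CPM (log2 fold change -1.09).

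Among the genes that rose, the highest counts were those of *MMP1*, the interstitial collagenase, at 393 and 404 CPM in the 7TGP-NEG and 1269.5 and 1352 CPM in the 7TGP-POS libraries, 3.31-fold higher (log2 fold change 1.73 ± 0.056 SE, adjusted *P* = 3.68e-23). *ITGA1*, a collagen-binding integrin subunit, was at 191 and 190.1 CPM in the 7TGP-NEG and 521 and 541 CPM in the 7TGP-POS libraries (2.8-fold). *HYOU1* and *PDIA4*, chaperones of the endoplasmic reticulum, were at 466 and 476 against 969.5 and 971 CPM and 199 and 202 against 425 and 447 CPM (log2 fold changes 1.05 and 1.13). They were the 2 of 27 unfolded protein response genes that rose, and none fell (median 0.32). *HSPA5*, the main chaperone of that compartment, was at 977 and 1025 CPM in the 7TGP-NEG and 1374 and 1389 CPM in the 7TGP-POS libraries, and its log2 fold change of 0.47 was below the threshold. *MCAM*, an adhesion molecule of melanoma and endothelium, was at 29.6 and 32.7 CPM in the 7TGP-NEG and 232 and 231 CPM in the 7TGP-POS libraries, 7.49-fold higher (adjusted *P* = 2.03e-33). *ICAM1*, which binds leukocyte integrins, was at 159 and 164 CPM in the 7TGP-NEG and 366 and 368 CPM in the 7TGP-POS libraries (2.29-fold, adjusted *P* = 1.73e-22), and *ICAM2* rose from 4.96 and 4.17 to 17.8 and 18.02 CPM. With *CADM2* and *CEACAM1* these made 5 of 27 cell adhesion genes that rose, and none fell (median -0.09).

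EMT genes were mixed. The EMT factors had 5.0% higher and 10.0% lower and the mesenchymal genes 7.32% each way, against 3.5% and 2.4% of all genes. Of 20 tested EMT transcription factors 1 rose (*TCF4*) and 2 fell (*SNAI3* and *GRHL1*), with a median of -0.13, and *ZEB1* was at 149.8 and 150.3 CPM in the 7TGP-NEG and 137 and 139 CPM in the 7TGP-POS libraries. Of 41 mesenchymal genes 3 rose (*POSTN*, *FBLN1* and *TGFBI*) and 3 fell (*VIM*, *TPM2* and *FBLN5*), with a median of 0.31. *TGFBI*, a matrix protein that binds integrins, was at 20.7 and 20.1 CPM in the 7TGP-NEG and 107 and 97.4 CPM in the 7TGP-POS libraries (5.05-fold higher). *TPM2*, a tropomyosin, was at 79.7 and 87.6 CPM in the 7TGP-NEG and 48.4 and 34.8 CPM in the 7TGP-POS libraries, a log2 fold change of -1.0003 that missed the threshold with DESeq2 (-0.99) and without POS replicate 2 (-0.81) or NEG replicate 2 (-0.93). Of 32 epithelial genes 4 rose and 2 fell (median 0.01). *CLDN1*, a tight junction protein gene, was at 2.09 and 2.7 CPM in the 7TGP-NEG and 24.3 and 24.6 CPM in the 7TGP-POS libraries (10.3-fold higher). Its neighbour *TP63*, the factor of basal epithelium, was at 4.99 and 4.34 CPM in the 7TGP-NEG and 21.5 and 23.1 CPM in the 7TGP-POS libraries (4.8-fold higher). Both were higher in each 7TGP-POS library. The keratin genes *KRT8* and *KRT19* were at 592 and 632 against 437 and 449.6 CPM and 787 and 846 against 553 and 552 CPM, with log2 fold changes of -0.46 and -0.55 that were no DEGs.

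Of 36 collagen genes 5 rose and 1 fell (13.9% and 2.78%, against 3.5% and 2.4% of all genes, median 0.19). The basement membrane chains *COL4A5* and *COL4A6*, which lie side by side, rose together, *COL4A5* from 10.9 and 9.48 to 70.3 and 66.97 CPM (6.76-fold) and *COL4A6* from 3.49 and 3.54 to 24.3 and 21.7 CPM (6.58-fold). *COL12A1* rose from 57.1 and 57.8 to 154 and 171 CPM (log2 fold change 1.51). *COL7A1*, the anchoring fibril chain, was at 146 and 143 CPM in the 7TGP-NEG and 343 and 262 CPM in the 7TGP-POS libraries (log2 fold change 1.07, adjusted *P* = 0.0147). Its call was lost without POS replicate 1 (log2 fold change 0.90), NEG replicate 1 (adjusted *P* = 0.0799) or NEG replicate 2 (0.0839). *COL6A3* was the collagen that fell, at 119 and 114 CPM in the 7TGP-NEG and 33.8 and 31.1 CPM in the 7TGP-POS libraries (3.56-fold lower, adjusted *P* = 3.16e-25). Of 41 matrix protease genes 6 rose and 1 fell (14.6% and 2.44%, median 0.34). *ADAMTS14*, which trims procollagens, was at 0.196 and 0.534 CPM in the 7TGP-NEG and 10.7 and 7.48 CPM in the 7TGP-POS libraries (24.9-fold higher), and the gelatinase *MMP9* went from 0.228 and 0.401 to 1.4 and 1.3 CPM. *SERPINA1*, the elastase inhibitor, fell from 6.59 and 7.64 to 2.24 and 2.05 CPM (log2 fold change -1.72). Of 12 hyaluronan genes 3 rose and none fell (25.0% higher, median 0.23). The hyaluronan synthase *HAS2* was at 34.9 and 36.9 CPM in the 7TGP-NEG and 97.5 and 101 CPM in the 7TGP-POS libraries (2.79-fold), and *CEMIP*, which degrades hyaluronan, at 13.3 and 13.9 against 26.9 and 27.7 CPM (log2 fold change 1.01), with values of 0.97 without POS replicate 2 and 0.98 without NEG replicate 1.

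Of 31 integrins and laminins 3 rose and 2 fell (9.68% and 6.45%, median -0.08). Of 34 listed cadherins and protocadherins 5 rose and none fell (14.7% higher, median 0.30), against 3.5% and 2.4% of all genes. The protocadherin genes *PCDHA13*, *PCDHAC1*, *PCDHAC2*, *PCDHB9* and *PCDHB10* of chromosome 5 were outside that list and fell. *PCDHB10* went from 22.3 and 20.9 to 10.0 and 10.4 CPM. *PCDH7*, a protocadherin, was at 11.4 and 11.8 CPM in the 7TGP-NEG and 61.5 and 61.6 CPM in the 7TGP-POS libraries (log2 fold change 2.41). *CDH13*, a cadherin without a cytoplasmic tail, rose from 0.261 and 0.401 to 2.24 and 2.4 CPM. Of 38 TGF-β, activin and BMP genes 3 rose (*INHBA*, *GDF15* and *NOG*) and 3 fell (*INHA*, *ID1* and *ID3*), with a median of 0.01. *NOG*, the BMP antagonist noggin, was at 35.6 and 37.6 CPM in the 7TGP-NEG and 210.2 and 214 CPM in the 7TGP-POS libraries, 5.84-fold higher (adjusted *P* = 1.52e-31). *ID1*, a target of BMP signals, was at 19.1 and 20.1 CPM in the 7TGP-NEG and 7.25 and 6.7 CPM in the 7TGP-POS libraries (2.79-fold lower). *NOG* was higher and *ID1* lower in both 7TGP-POS libraries. *ID3* went from 2.28 and 3.04 to 1.14 and 1.23 CPM, a log2 fold change of -1.16 that was -0.94 without NEG replicate 2. The ligand *BMP4* was at 187 and 186 CPM in the 7TGP-NEG and 320.2 and 294 CPM in the 7TGP-POS libraries, and its log2 fold change of 0.73 was below the threshold.

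Of 44 growth factor ligands 6 rose and 1 fell (median 0.14), among them *PGF*, a ligand of the VEGF receptor 1, from 5.38 and 5.61 to 29.9 and 28.5 CPM (5.34-fold). Of 42 receptor tyrosine kinases 5 rose and 2 fell (median -0.03), and of 33 MAPK feedback and AP-1 genes 1 rose and 1 fell (median -0.05). Of 43 axon guidance genes 2 rose and 2 fell (4.65% each way, median 0.16). The MAPK feedback and AP-1 list had 3.03% each way, against 3.5% higher and 2.4% lower of all genes. *SLIT2*, a repellent of axons and cells, was at 49.02 and 47.8 CPM in the 7TGP-NEG and 152 and 151 CPM in the 7TGP-POS libraries (3.16-fold higher). *PLXNA2*, a semaphorin receptor, was at 96.1 and 90.3 CPM in the 7TGP-NEG and 35.9 and 33.1 CPM in the 7TGP-POS libraries (log2 fold change -1.43). The groups did not overlap in either gene. Of 25 CCN and YAP/TAZ target genes 3 rose and none fell (median 0.11), including *F3*, the tissue factor gene (114 and 110.4 against 261 and 259 CPM) and *ANKRD1* (143 and 155 against 305 and 302 CPM, log2 fold change 1.03, 0.98 without NEG replicate 1). Of 28 cell cycle inhibitors and cyclins 1 rose and 2 fell (median -0.07), the increase being *CCND2* (cyclin D2), from 27.95 and 30.1 to 103 and 103 CPM (3.57-fold). The amino acid stress list had *DDIT4*, an mTOR inhibitor, as its only call of 27 (91.8 and 92.7 against 222 and 224 CPM, log2 fold change 1.28). Of 21 stem-cell markers 1 rose (*SOX2*) and 2 fell (*ITGB3* and *NES*), with a median of -0.39, and *CD44* was at 411 and 415 CPM in the 7TGP-NEG and 457 and 493 CPM in the 7TGP-POS libraries.

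Of 25 Notch pathway genes 1 rose and 1 fell, of 22 immune checkpoint genes 3 rose and 1 fell, of 23 ABC transporters 1 rose and none fell, and of 17 S100 proteins 1 fell and none rose (medians -0.10, 0.16, -0.06 and -0.41). The Notch list had 4.0% each way, against 3.5% higher and 2.4% lower of all genes. Lists of growth and metabolism held few or no DEGs. Of 47 DNA replication genes none was called by edgeR or DESeq2, but 26 were higher and 4 lower at an unadjusted edgeR *P* below 0.05 (median 0.18), the *P* at which 21.9% of all genes were higher and 23.3% lower. Of 45 G2/M and mitosis genes none was called by either tool, with 33 higher and 4 lower at that *P* (median 0.19). Of 33 cholesterol synthesis genes none was called by either tool, with 7 higher and 19 lower (median -0.17). The 34 ribosome biogenesis genes (12 higher, 1 lower, median 0.10) also held no DEG by either tool, with these counts at the unadjusted edgeR *P*. The same held for the 47 nuclear respiratory chain genes (12 higher, 11 lower) and the 18 histone genes (4 higher, none lower), whose shares of higher genes were near those of all genes. Of 35 glycolysis and hypoxia genes *ALDOC* and *EGLN3* fell and none rose (median 0.06). The 13 mitochondrially encoded genes all had negative log2 fold changes (median -0.83), and none was a DEG by edgeR, with 1 lower at the unadjusted *P* and 1 lower by DESeq2. *MT-CO1*, a cytochrome c oxidase subunit, was at 2589.9 and 3516 CPM in the 7TGP-NEG and 2354 and 1463 CPM in the 7TGP-POS libraries (log2 fold change -0.67, adjusted *P* = 0.192), and POS replicate 2 was the lowest library.

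**Figure D3:**
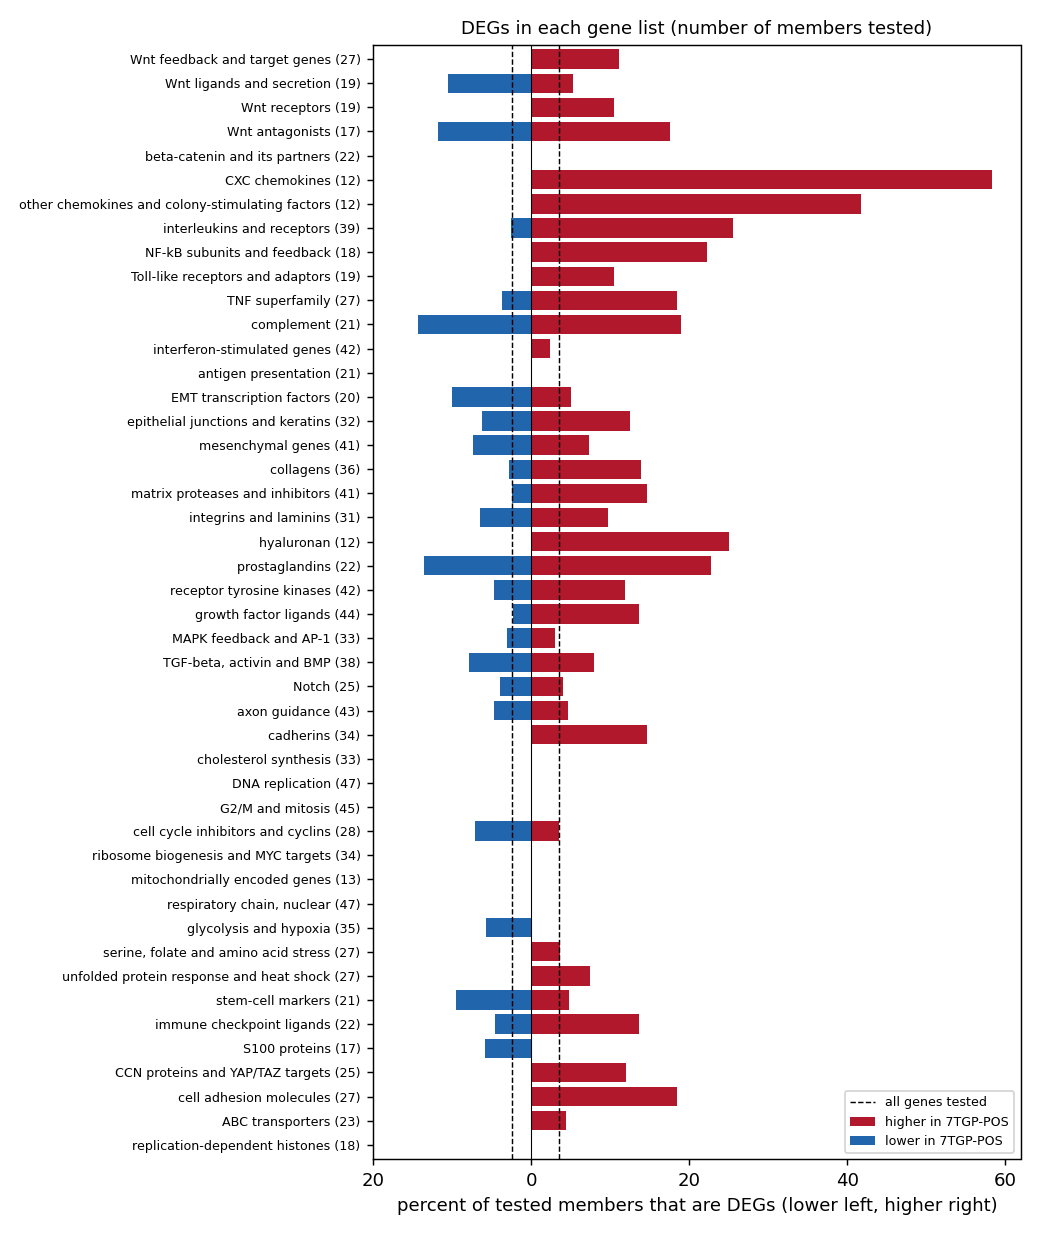
Percentage of the tested members of each gene list that rose (red, to the right) or fell (blue, to the left) in 7TGP-POS cells, with the number tested in parentheses and dashed lines for the shares over all genes, 3.5% and 2.4%. The CXC chemokines (58.3%) and the other chemokines and colony-stimulating factors (41.7%) have the longest bars, and lists such as DNA replication and cholesterol synthesis have none.

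Non-coding genes were counted in the same libraries, which were depleted of ribosomal RNA and so keep transcripts without a poly(A) tail. Of 9995 tested, 356 passed the same thresholds (3.56%), 216 higher (2.16%) and 140 lower. Long non-coding RNAs made 153 of the increases and 101 of the decreases, and pseudogenes 42 and 31. *LINC02582* was at 2.05 and 1.47 CPM in the 7TGP-NEG and 132 and 125 CPM in the 7TGP-POS libraries (log2 fold change 6.23 ± 0.107 SE, 74.9-fold). *LINC02864* was at 0.489 and 0.501 CPM in the 7TGP-NEG and 23.2 and 21.1 CPM in the 7TGP-POS libraries (45.8-fold). Both were higher in each 7TGP-POS library than in either 7TGP-NEG library. *LINC02506* went from 2.15 and 1.47 to 19.5 and 17.8 CPM, and the pseudogene *DUXAP10* from 2.48 and 2.1 to 24.1 and 22.4 CPM, whose reads can be shared with its copies. Among the decreases *APCDD1L-DT*, which starts beside the gene *APCDD1L* on the other strand, went from 11.2 and 10.4 to 2.44 and 1.9 CPM (4.82-fold lower). Whether the counting used the strand is not given in the sources used here, so values of antisense and overlapping genes are uncertain. Only 103 of the 356 had at least 10 counts in each library. The count fell to 132 with DESeq2 and to 226 without POS replicate 2, 233 without NEG replicate 1 and 234 without NEG replicate 2.

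Some DEGs lay next to each other on the genome (coordinates of hg19). Runs of at least 2 tested neighbours that changed in the same direction numbered 78 and held 181 DEGs (19.1%), and 19 of them had at least 3 genes. The longest run held 6 zinc finger genes that rose, *ZNF257*, *ZNF676*, *ZNF98*, *ZNF492*, *ZNF723* and *ZNF730*, on chr19:22235232-23330023, where similar sequences make single genes uncertain. The cystatins *CST3*, *CST4*, *CST1* and *CST2* fell over chr20:23607343-23807366 and the trefoil factors *TFF3*, *TFF2* and *TFF1* over chr21:43731777-43786644. *GABRA3*, *MAGEA6*, *MAGEA12*, *CSAG1* and *MAGEA3* rose over chrX:151334706-151938240, and *CXCL5*, *CXCL3* and *CXCL2* over chr4:74861359-74964913. *IL1A* and *IL1B* rose over chr2:113531502-113594393, and *PTGS2* and *PLA2G4A* over chr1:186640923-186958113. By chromosome, X had the highest share of genes that rose, 58 of 569 (10.2% against 3.5% of all), followed by chromosome 4 with 42 of 620 (6.77%). Of the genes that fell, chromosome 21 had 8 of 149 (5.37% against 2.4%) and chromosome 9 had 34 of 648 (5.25%). These shares are descriptions, since neighbouring genes are not independent. The number of runs to be found if DEGs were placed at random was not computed.

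**Figure D4:**
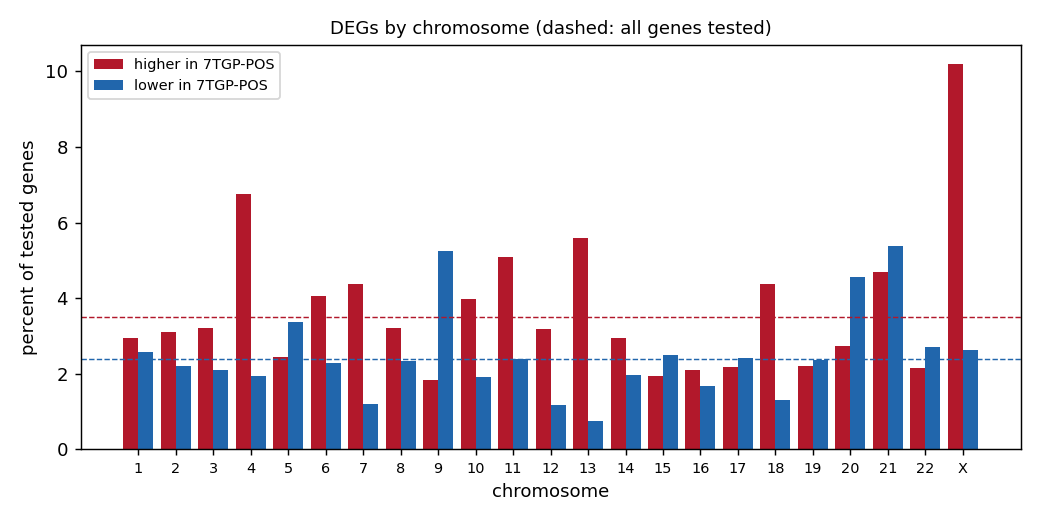
Percentage of the tested genes on each chromosome that rose (red bars) or fell (blue bars) in 7TGP-POS cells, with dashed lines for the shares over all genes, 3.5% and 2.4%. Chromosome X has the tallest bar for increases (10.2%), and chromosomes 21 and 9 have the tallest for decreases (5.37% and 5.25%).

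The same sublines were also sequenced in standard serum (10% FBS, day 6). Serum, days in culture, library preparation (poly(A) selection there, ribosomal RNA depletion here) and sequencing run all differ between these sets and cannot be told apart, so no test of the difference was made. In standard serum 1185 of 15414 tested genes passed the thresholds (7.69%). Of the 948 low serum DEGs 564 changed in the same direction there, which is 59.5% of the low serum and 47.6% of the standard serum DEGs. The share was 66.6% of the genes that rose and 49.1% of those that fell. Only 8 changed the opposite way, and 27 were not tested. *CXCL8*, *IL1B* and *COL6A3* had standard serum log2 fold changes of 2.58, 4.10 and -2.65. *TGFBI* had 0.26 in standard serum against 2.34 in low serum.

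The MDA-MB-436 sublines were grown at the same serum level and sequenced in the same way, so the changes in the lines were compared by a test. By the study's methods the lines were kept in different culture media, and each line gave a single sorted pair. Line, medium and sorted pair cannot be told apart in this comparison. The change in MDA-MB-231 differed from that in MDA-MB-436 for 1884 of the 16069 genes (11.7%), by an interaction term in the edgeR model with the same thresholds. Among the 948 DEGs of MDA-MB-231 it differed for 525 (55.4%), but these genes were chosen by the MDA-MB-231 contrast, which the difference contains. Of the 563 that rose, 126 also rose in MDA-MB-436 and 54 fell, and of the 385 that fell, 42 also fell and 39 rose. Of all genes tested, 6.52% rose and 4.03% fell in MDA-MB-436. The lines shared the rise of *TLR2* (log2 fold changes 1.59 and 5.97). *IL24* rose by 4.39 in MDA-MB-231 and had -2.05 in MDA-MB-436, a difference of 6.44 ± 0.472 SE (adjusted *P* = 7.18e-15). *CCND2* rose by 1.84 in MDA-MB-231 and had -2.01 in MDA-MB-436, a difference of 3.85 ± 0.0873 SE (adjusted *P* = 1.81e-31). Of the cytokine genes described above, *CXCL8* had a log2 fold change of 1.46 and *CXCL1* of 1.40 in MDA-MB-436. *IL1B* had 0.21 there, *IL6* -0.39, *CSF3* -0.58 and *PTGS2* -0.08, and the differences from MDA-MB-231 were 3.84, 3.25, 3.02 and 2.97 (adjusted *P* = 1.94e-24, 6.77e-20, 2.06e-24 and 8.06e-19). *IL11* rose in both lines (2.36 and 3.34). *COL6A3* fell by 1.83 on the log2 scale in MDA-MB-231 and rose by 2.59 in MDA-MB-436. Of the 41 mesenchymal genes 16 rose and 4 fell in MDA-MB-436, against 3 and 3 in MDA-MB-231, and of the 36 collagens 20 rose and 3 fell, against 5 and 1. The shares of all genes that rose and fell, 6.52% and 4.03% in MDA-MB-436 against 3.5% and 2.4% in MDA-MB-231, also differed between the lines.

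**Figure D5:**
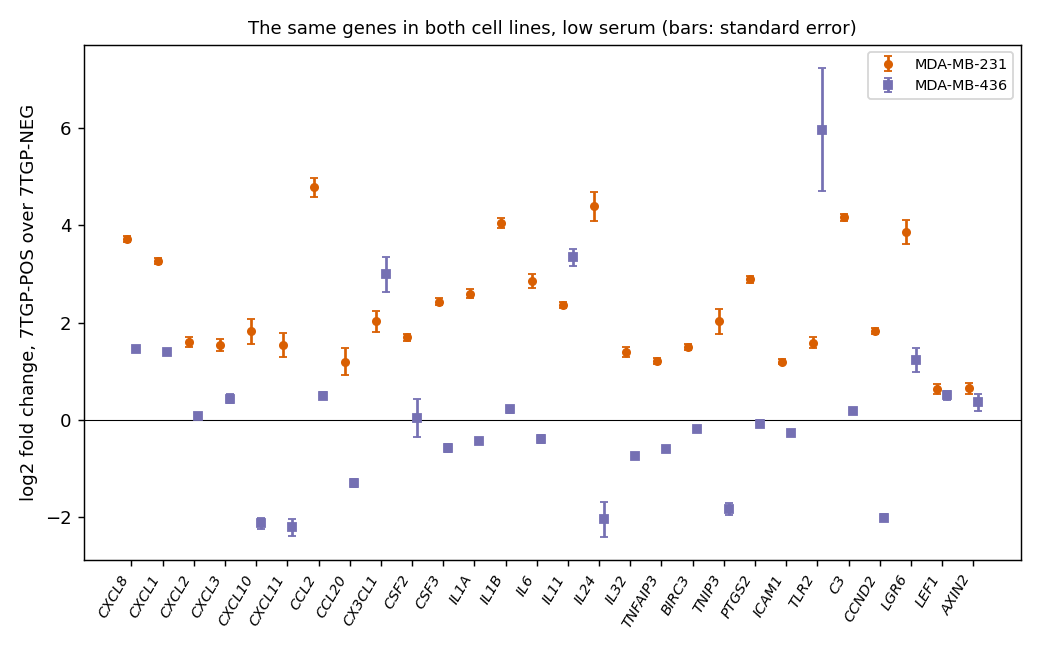
Log2 fold change in 7TGP-POS over 7TGP-NEG cells for named genes in low serum, in orange for MDA-MB-231 and purple for MDA-MB-436, with bars for the standard error of the fit. *CCND2* (1.84 and -2.01) and *IL24* (4.39 and -2.05) have opposite signs in the 2 lines, while *TLR2* (1.59 and 5.97) is positive in both and *AXIN2* lies between 0 and 1 in both.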

How the data were processed

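RNA from the 2 MDA-MB-231 sublines in low serum was sequenced as ribosomal RNA-depleted, directional, paired-end libraries per the study's methods, whereas the labels name a poly(A)-based kit for all samples. The authors removed ribosomal reads with Bowtie, aligned with STAR (2.6.1a in the submitters' processing notes, another release in the study's methods) to hg19 and deposited raw counts per gene of Gencode v19, beside deposited TPM values whose method, like the strand setting of the counting, is not given in the sources used here. The submitters' processing notes also name edgeR 3.22.5 and limma. Total counts per library were 28357682 to 30659369. Symbols were matched by Ensembl ID (55538 of 57820 IDs, 19404 protein-coding), and protein-coding and non-coding genes were adjusted separately.

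Genes were kept when their counts over the 8 low serum libraries summed to 10 or more, and tested with edgeR 4.0.16 (R 4.3.3, TMM scaling, robust quasi-likelihood fit), in 1 model of the 4 low serum groups, so that the MDA-MB-436 libraries share in the estimate of spread. DEGs had an adjusted *P* under 0.05 (Benjamini-Hochberg) and a log2 fold change of at least 1 in size. Standard serum libraries were fitted apart with the same model. Alternatives used DESeq2 1.42.0, limma 3.58.1 on the authors' TPM (pseudocount 1), as deposited or rescaled, other filters and scalings, a threshold test, a replicate block and libraries left out in turn. Where a group had 0 counts, folds were set against a floor of 3 counts over its 2 libraries, and with 1 to 3 counts a 95% exact interval of the ratio is given. The intervals cover counting error only, since reads carried no molecular identifiers. The floors leave out counting error in the higher group, so a fold given as at least a value holds for its observed counts only. In simulated data the protein-coding fit called 50.7% of 2-fold changes, which lie at the fold threshold, and 100% of 4-fold changes. No unchanged gene was called. With all biotypes in the fit these shares were 32.8% and 97%, and 6 unchanged genes were called. Genes with low counts were not among those changed, so the simulation does not cover them. The main model did not pair the samples by replicate number. The replicate differences of both groups correlated at -0.0009 over the tested genes, which does not show how the cultures were set up.

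The genes named are the 10 widest changes each way among genes with 10 or more counts in all 4 libraries, the 8 each way with the highest CPM where the other group had at most 3 counts per library, the 10 each way with the most counts, members of the gene lists, the 5 widest non-coding changes each way, genes that changed oppositely in the 2 lines (10 by smallest adjusted *P*), and families at 1 place, of which the text gives a part. The comparison, lists and motifs were chosen with earlier results of these data known. The lists do not hold every member of a family, so the members called are counted within a list only. Some results on genes withheld from this text are not reported here.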

Additional observations from a re-analysis of the deposited data

Results flagged for a closer look

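The changes of 16 named genes in low serum MDA-MB-231 cells differed from those in MDA-MB-436 cells and had the opposite sign, by the interaction term of the edgeR fit. Each value is the log2 fold change in MDA-MB-231 minus that in MDA-MB-436. Higher in 7TGP-POS cells of MDA-MB-231 and lower in those of MDA-MB-436 were the cyclin gene *CCND2* (3.85), *NNMT*, a nicotinamide methyltransferase (3.19), *PDZK1IP1* (3.62), the sphingosine phosphate receptor gene *S1PR3* (3.95) and *SCG5* (5.01). The same held for cytokine genes and their partners, *CXCL10* (3.95), *CXCL11* (3.75), *CCL20* (2.5), *IL24* (6.44) and *TNIP3* (3.86), and for *IL13RA2* (7.75) and *CXCL5* (4.49), which had 1 count in the 7TGP-NEG libraries of MDA-MB-231 together, so that these differences depend on the prior count of the fit and are no bounds. Lower in MDA-MB-231 and higher in MDA-MB-436 were *PPL*, a desmosome gene (-2.95), *PLXNA2* (-2.62), *C4B* (-4.13) and the proteoglycan gene *CSPG4* (-6.83). In MDA-MB-231 itself *CSPG4* was at 54.1 and 49.9 CPM in 7TGP-NEG and 21.4 and 21.5 CPM in 7TGP-POS libraries, and *PPL* was no longer a DEG without NEG replicate 1, where its log2 fold change fell just short of the threshold (-1.0 when rounded). These genes were chosen for their opposite signs, so the signs are a description.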

How the results depend on the processing

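Of 190 named genes 128 kept their status, as a DEG or not, in every alternative applied to single genes, and none changed sign. The test of the fold threshold itself and the setting with no fold threshold were not among these. Settings that filtered a gene out or gave it no adjusted *P* were passed over. On log2(TPM + 1) with limma, 52 lost the call, among them *LGR5*, *WNT7B*, *WNT11*, *TNFAIP3*, *ICAM1*, *HYOU1*, *PDIA4*, *C1S* and *CX3CL1*, and *FZD1* was called. With TPM rescaled to the same protein-coding total, an alternative added after seeing the data, 40 lost the call and none gained one. DESeq2 ended 3 calls (*DNALI1*, *TPM2* and *PGM5P4-AS1*) and gave *IL1RN* no adjusted *P*. Without the robust option *MT-ND4* was called. The 948 DEGs (563 higher, 385 lower) became 302 (140 and 162) with limma on TPM, 309 (218 and 91) with rescaled TPM, 352 (243 and 109) when the fold threshold was tested itself, and 6250 (3060 and 3190) with no fold threshold. With a library left out in turn they were 827 to 941 (484 to 522 higher, 312 to 419 lower). In the same order of those 4 settings, the 1884 genes that differed between lines became 1117, 1121, 899 and 7345, the 1185 standard serum DEGs 522, 523, 521 and 5084, and the 564 shared ones 212, 228, 243 and 3396. The 356 non-coding calls became 132 with DESeq2, 123 with limma on TPM, 144 with rescaled TPM, 82 when the fold threshold was tested, 663 without it, 235 in a fit of non-coding genes alone and 226 to 302 with a library left out. With the replicate block 926 protein-coding DEGs were found (552 higher, 374 lower), and no call of a named gene changed. The turn in the split with limma on TPM was absent after the rescaling, which sets the protein-coding totals equal. The cause of the turn was not tested. With 2 cultures of a subline per group, differences between sorted populations that are unrelated to the reporter cannot be told apart from it.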
